A study of Sorghum bicolor with 12 samples.

Results

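In roots of sweet sorghum (Sorghum bicolor), 40 loci were expressed in the line M-81E and were at or near 0 in the line Roma. They were chosen from 34352 loci by their FPKM (fragments per kilobase of transcript, corrected for the size of the library). A locus was kept when its gene name carried a SORBI identifier, when it had at least 1 FPKM in all 6 M-81E libraries, and when it had at most 0.05 FPKM in all 6 Roma libraries. Of the 11267 loci with a SORBI name that met the M-81E limit, 0.355% were chosen. The 4 groups had 3 libraries each: M-81E-salt and M-81E-CK from the salt-tolerant line, and Roma-salt and Roma-CK from the salt-sensitive line. In the salt groups, plants at the 3-leaf stage received NaCl in steps of 50 mM every 12 h up to 150 mM and were taken after 24 h of salt, while CK plants received no NaCl. The labels give the 24 h, and the concentrations come from the study's methods. The study calls the libraries of a group biological replicates, without saying in the labels which plants or cultures they came from, so p-values measure the spread between these libraries. With 1 tolerant and 1 sensitive line, salt tolerance and every other difference between M-81E and Roma cannot be told apart.

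Lines of one crop species can differ in the genes they carry, and a gene read in one line can be lost, silent or altered in sequence in another. Genes of this kind often carry little annotation or belong to families of mobile elements and defence genes that turn over rapidly. Because reads of both lines were mapped to one reference genome, a gene that is missing, a gene that is not transcribed and a gene whose sequence no longer matches the reference cannot be told apart from these values. In whole roots, fewer cells of a type and less RNA per cell cannot be told apart either.

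The levels below describe the choice, and the difference between the lines was not tested because it chose the loci. The 40 loci had a median of 2.13 FPKM over the M-81E libraries, with means of 1.26 to 14.2 FPKM per locus. For comparison, the median over the 11267 loci at 1 FPKM or more in all M-81E libraries was 6.01 FPKM. Of those loci, 87.7% were above the median of the chosen loci and 25.8% were above the highest of them, so the chosen loci lay at the low end of expression. A mean of 5 FPKM or more was reached by 5 loci, 17 had 2 to 5 FPKM and 18 had under 2 FPKM. Their summed level was 108 to 132 FPKM in the M-81E libraries and 0.134 to 0.389 FPKM in the Roma libraries.

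The highest locus was SORBI_3010G165700, annotated as a DNA helicase, an enzyme that unwinds the double helix. It had 14.4, 14.6 and 17.6 FPKM in M-81E-salt and 15.1, 11.5 and 11.8 FPKM in M-81E-CK, against 0.00330, 0.00436 and 0.00445 FPKM in Roma-salt and 0.0151, 0.0106 and 0.00658 FPKM in Roma-CK. It was 1 of 2 loci above 0 in every Roma library. The other was SORBI_3004G278650, which has no description, with 3.24, 3.20 and 3.64 FPKM in M-81E-salt and 5.05, 3.89 and 4.84 FPKM in M-81E-CK, against 0.0217 to 0.0448 FPKM over the Roma libraries. At the other end, 13 loci were listed at 0 in all 6 Roma libraries, and 25 were at 0 in some of them. In all, 165 of the 240 Roma values of these loci were 0, and the values above 0 had a median of 0.0106 FPKM and a highest value of 0.0487 FPKM.

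**Figure D1:**
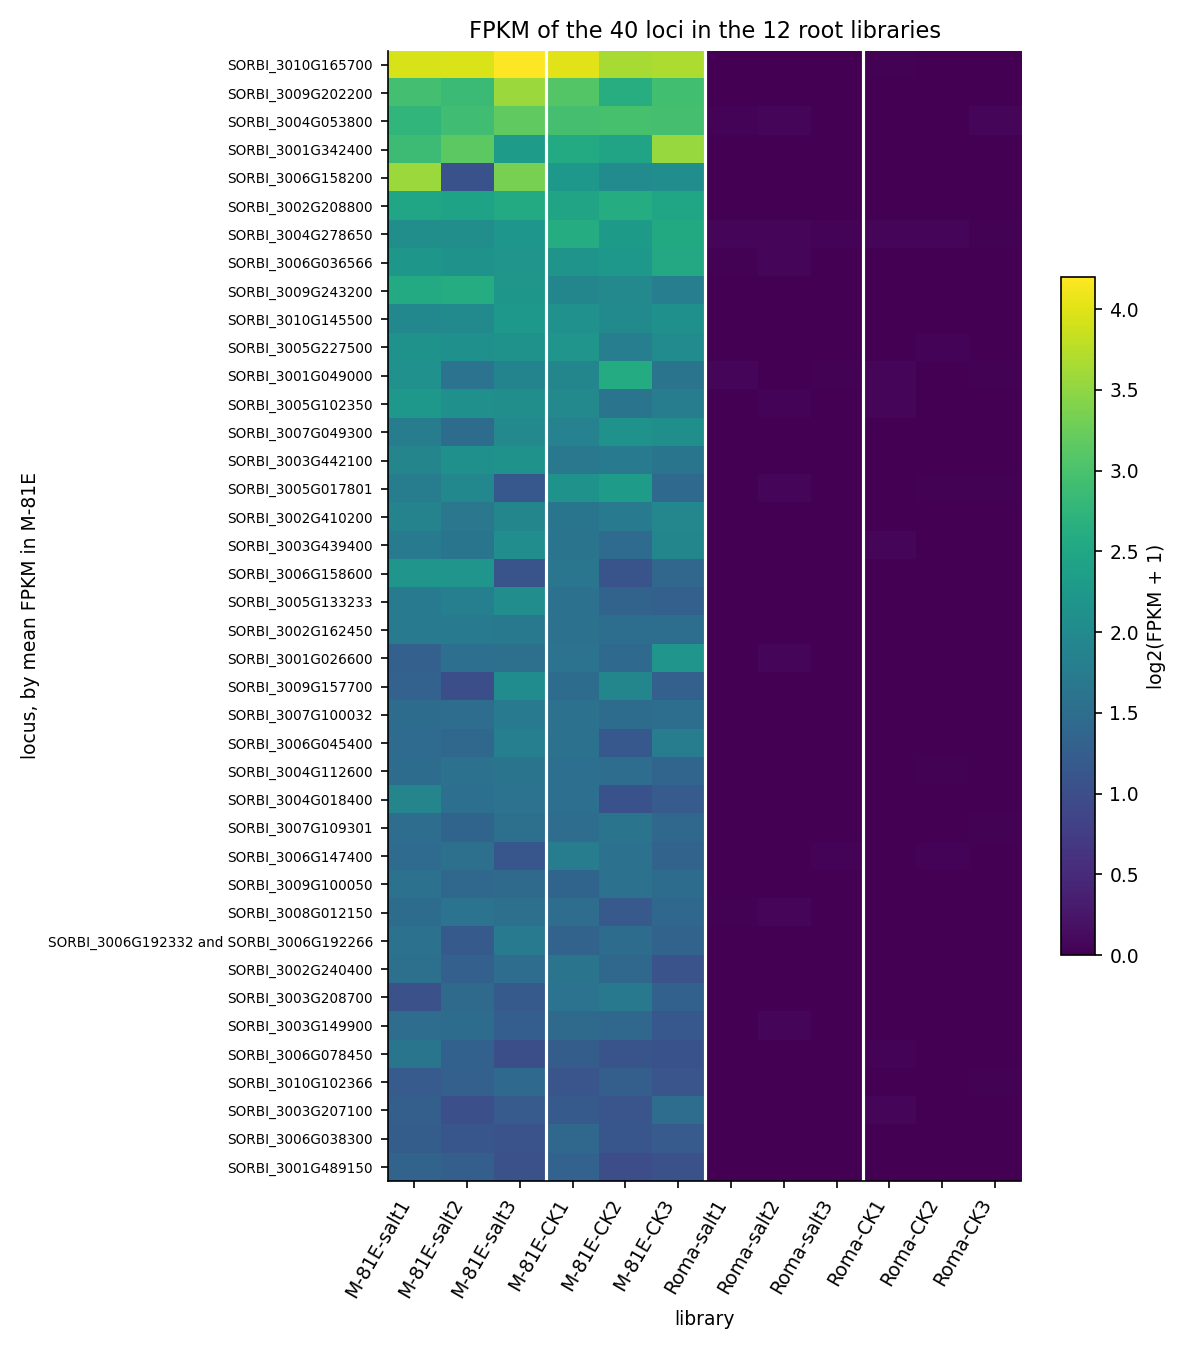
Colour gives log2(FPKM + 1) for the 40 loci (rows, by mean FPKM in M-81E) in the 12 libraries (columns). SORBI_3010G165700 leads with 11.5 to 17.6 FPKM in M-81E, 18 of the loci have a mean under 2 FPKM there, and no Roma value is above 0.0487 FPKM.

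A 0 in the deposited table can be an estimate that failed, so these loci are described as listed at 0. Among the loci at 1 FPKM or more in all M-81E libraries, 156 were at 0 in 1 to 5 Roma libraries, and 107 of these had 1 FPKM or more in another Roma library. Counted by how many Roma libraries were at 0.05 FPKM or less, there were 83 loci with 1 such library, 37 with 2, 20 with 3, 12 with 4, 12 with 5 and 40 with all 6. The count did not taper toward 6 libraries. The same rule with the lines exchanged gave 37 loci that were expressed in all Roma libraries and at or near 0 in M-81E, which is 0.298% of the loci at the Roma limit. The 2 lines therefore had sets of like size, although the loci of the Roma set reached 330 FPKM, with a median of 2.48 FPKM.

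**Figure D2:**
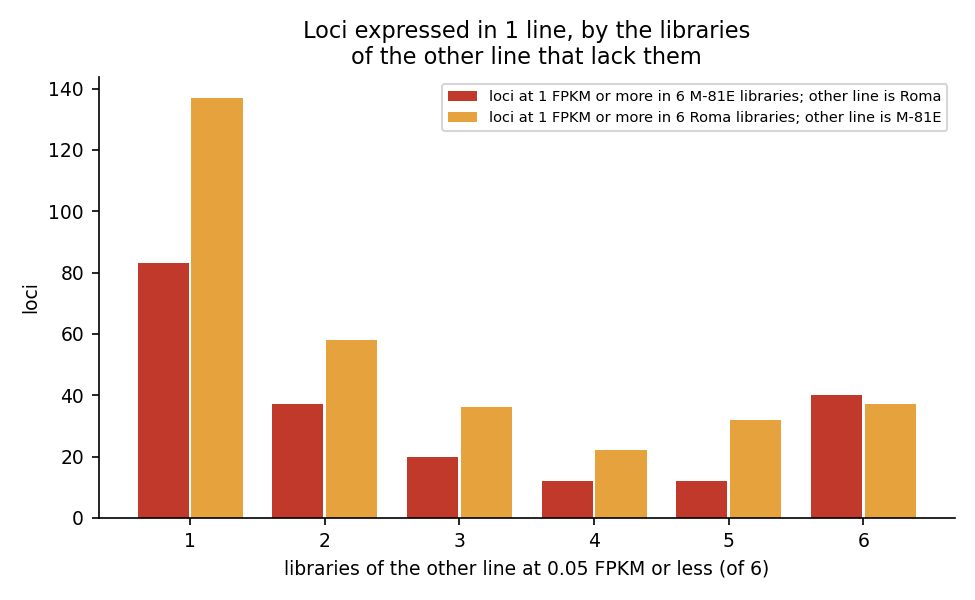
Bars count loci at 1 FPKM or more in all 6 libraries of a line, by how many of the 6 libraries of the other line were at 0.05 FPKM or less (loci with none are left out). For M-81E the counts are 83, 37, 20, 12, 12 and 40, and for Roma they end at 37.

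The limits of the rule were arbitrary, and loci lay on both sides of each. Just inside the M-81E limit were SORBI_3001G489150, SORBI_3009G157700 and SORBI_3006G078450, whose lowest M-81E libraries had 1.00, 1.01 and 1.02 FPKM. Just outside it were SORBI_3009G103500, SORBI_3009G046400 and SORBI_3005G130200 with 0.911, 0.883 and 0.883 FPKM. Just inside the Roma limit were SORBI_3004G053800, SORBI_3003G207100 and SORBI_3003G149900, whose highest Roma libraries had 0.0487, 0.0468 and 0.0466 FPKM. Just outside it were SORBI_3009G081100, SORBI_3003G417350 and SORBI_3009G097250 with 0.0563, 0.0586 and 0.0589 FPKM.

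Most of the 40 loci had no annotated function. A gene ontology (GO) term was given for 9 of them (22.5%) and a KEGG pathway for 7 (17.5%). Among the 8303 expressed loci within the same range of M-81E means, these shares were 89.7% and 50.5%. No description was given for 13 of the 40 loci (32.5%), against 3.11% of the loci in that range. In the set expressed in Roma alone, 27.0% had a GO term, 21.6% a KEGG pathway and 37.8% no description, so both sets were thinly annotated. Identifiers that do not end in 00, as models added between those of an earlier numbering have, made up 35% of the 40 loci, 40.5% of the Roma set and 4.27% of the 11267 expressed loci. For 11 of the 40 loci (27.5%), the table listed only transcripts assembled by StringTie, with no annotated transcript. That share was 24.3% in the Roma set and 2.37% among the expressed loci.

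**Figure D3:**
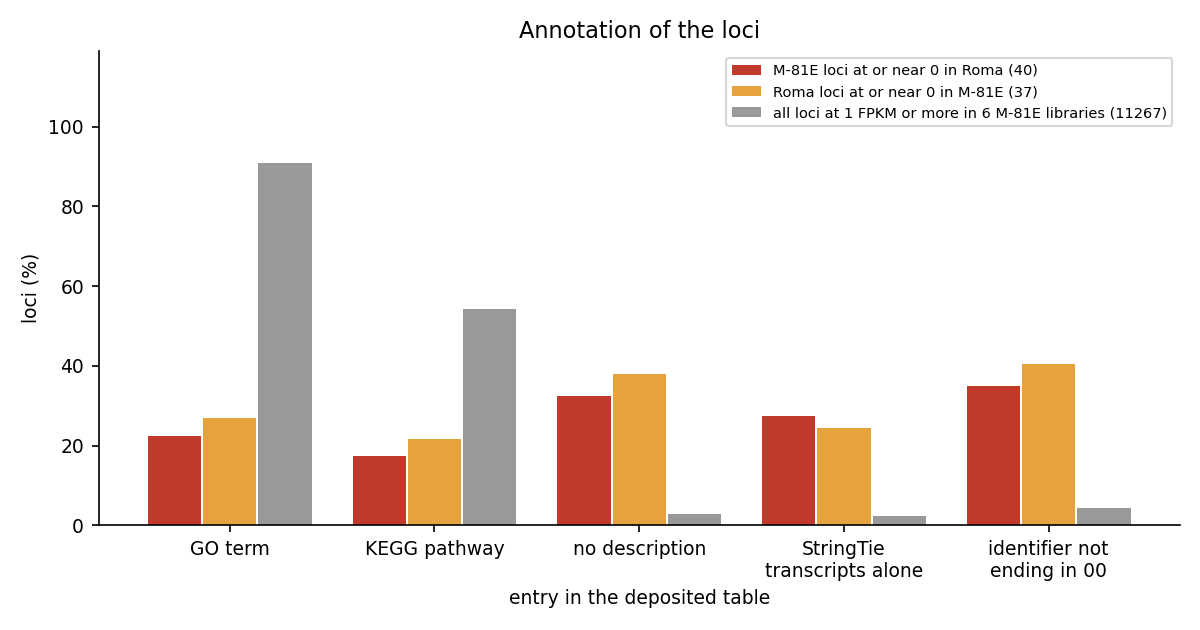
Bars give the percentage of loci with each kind of entry in the deposited table, for the 40 M-81E loci, the 37 Roma loci and the 11267 loci at 1 FPKM or more in all M-81E libraries. A GO term is present for 22.5%, 27.0% and 91.0% of them.

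The label "genes expressed in M-81E only" went against the data for some loci. Of the 11 loci with StringTie transcripts alone, 7 shared their SORBI name with another locus of the table that held the annotated transcript, and for 2 of them that other locus had at least 1 FPKM in all 12 libraries. The clearest was SORBI_3006G158600. Its chosen locus had 3.59, 3.59 and 1.14 FPKM in M-81E-salt and 2.13, 1.14 and 1.62 FPKM in M-81E-CK, and all of its Roma libraries were listed at 0. Its annotated locus had 248.9, 260.3 and 337.1 FPKM in M-81E-salt and 360.6, 284.3 and 265.2 FPKM in M-81E-CK, against 73.6, 75.5 and 37.3 FPKM in Roma-salt and 61.6, 79.3 and 129.5 FPKM in Roma-CK. The gene of that name was thus read in both lines, and the chosen locus was a minor one beside it. SORBI_3009G157700 was also read in both lines, with 4.39 to 5.94 FPKM in M-81E and 3.14 to 4.89 FPKM in Roma at its annotated locus. Its chosen locus had 1.01 to 3.12 FPKM in M-81E, nearer to the level of the annotated locus, and was listed at 0 in Roma.

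The annotated locus of SORBI_3004G018400 was listed at 0, 415.2 and 0 FPKM in M-81E-salt and at 0 in all M-81E-CK libraries, against 577.5, 0 and 629.1 FPKM in Roma-salt and 603.9, 700.3 and 484.8 FPKM in Roma-CK. Replicates of M-81E-salt thus ran between 0 and 415.2 FPKM, and no level was set for that gene. The annotated locus of SORBI_3009G243200 had 6.5, 8.05 and 0 FPKM in M-81E-salt and 0, 0 and 7.89 FPKM in M-81E-CK, against 11.8, 10.2 and 10.02 FPKM in Roma-salt and 0, 5.004 and 6.71 FPKM in Roma-CK. The annotated locus of SORBI_3001G489150 had 0.113 to 0.567 FPKM in M-81E and 0.182 to 1.27 FPKM in Roma. That of SORBI_3007G049300 had at most 0.121 FPKM in M-81E and at most 0.234 FPKM in Roma. That of SORBI_3002G208800 had 0.0738 to 0.246 FPKM in M-81E and at most 0.0147 FPKM in Roma, so it too was near 0 in Roma. Loci with StringTie transcripts alone were listed at 0 in all Roma libraries in 9 of 11 cases, and those with an annotated transcript in 4 of 29 cases. The 40 entries are therefore called loci and not genes.

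**Figure D4:**
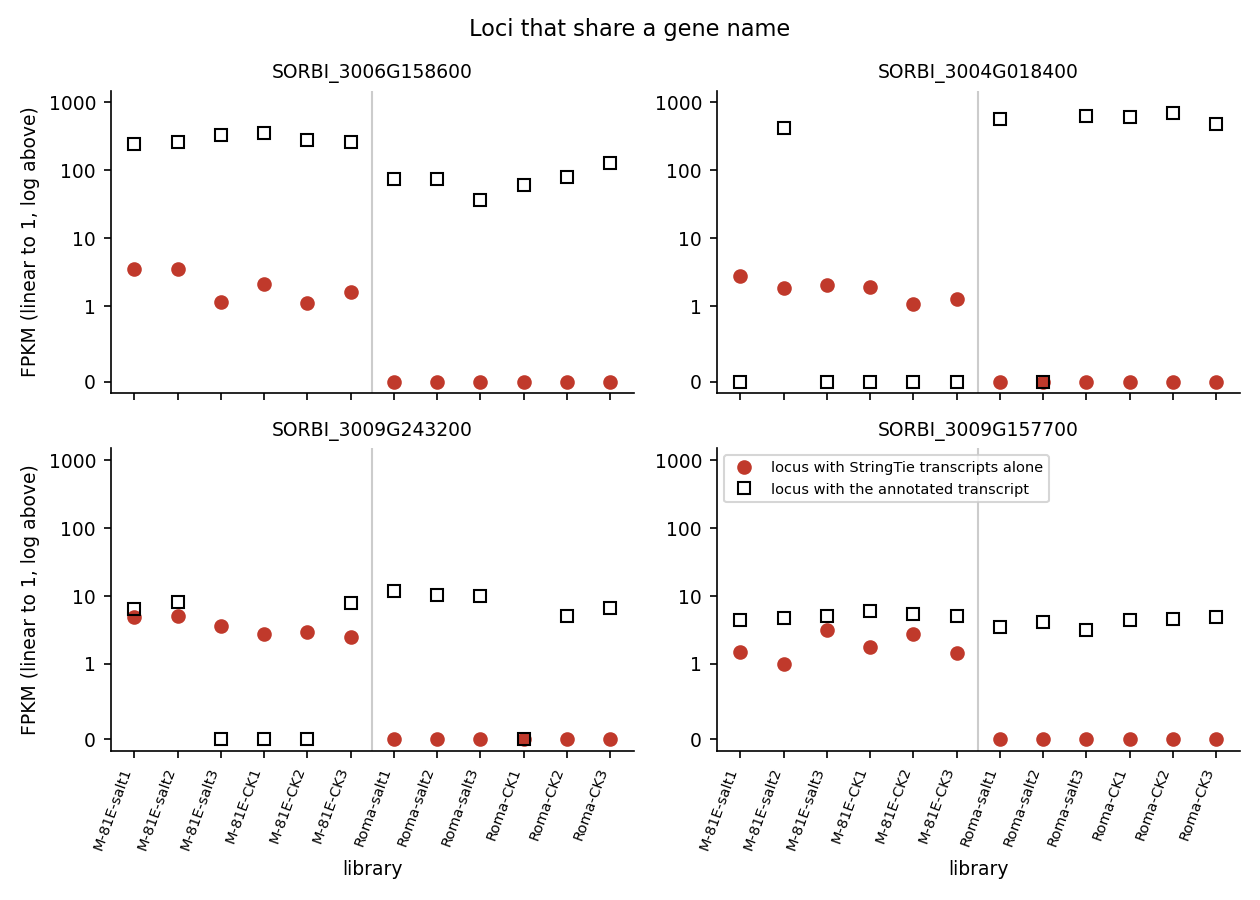
FPKM (linear to 1, log above) in each library for 4 gene names carried by a chosen locus with StringTie transcripts alone (circles) and by another locus with the annotated transcript (squares). The squares of SORBI_3006G158600 lie at 37.3 to 360.6 FPKM in every library of both lines, and its circles are at 0 in Roma.

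The 11 loci with a GO term or a KEGG pathway all had an annotated transcript, and they are named here for that annotation. Those for DNA and mobile elements were SORBI_3010G165700 and SORBI_3003G207100. The terms of SORBI_3010G165700, telomere maintenance, DNA repair and DNA duplex unwinding, are those of helicases that keep chromosome ends and broken DNA intact, and 17 transcripts were listed for it. SORBI_3003G207100 is described as a CACTA transposon protein of the En/Spm group, a class of cut-and-paste mobile elements, by likeness to rice. It has no GO term, and its KEGG pathways are for purine and pyrimidine metabolism, DNA replication, DNA repair and homologous recombination, which its description does not share. It had 1.40, 1.03 and 1.32 FPKM in M-81E-salt and 1.29, 1.15 and 1.84 FPKM in M-81E-CK. It was the 1 member among 50 loci whose descriptions matched a word list for mobile elements, 13 of them at the M-81E limit. The search ignored case and used short strings that also occur inside other words, so the 50 are not a count of mobile elements.

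Signalling and transcription were represented by 3 loci. SORBI_3006G158200 has the terms serine/threonine kinase activity, carbohydrate binding, plasma membrane and response to salicylic acid, a hormone of defence against pathogens. The table also gives it a starch-degrading enzyme number, which its GO terms do not share. Its levels were 10.9, 1.09 and 9.11 FPKM in M-81E-salt and 3.72, 3.08 and 3.15 FPKM in M-81E-CK, and it was listed at 0 in all Roma libraries. SORBI_3003G208700, a second kinase with a term for cell surface receptor signalling and the plant-pathogen interaction pathway, had 1.05, 1.75 and 1.29 FPKM in M-81E-salt and 2.04, 2.25 and 1.47 FPKM in M-81E-CK. SORBI_3003G442100, a sequence-specific transcription factor with a term for abscisic acid signalling, a hormone of the response to drought and salt, had 2.75, 3.29 and 3.40 FPKM in M-81E-salt and 2.20, 2.32 and 2.09 FPKM in M-81E-CK. Both the kinase SORBI_3006G158200 and this factor were listed at 0 in every Roma library.

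Enzymes of detoxification and phenylpropanoids came next. SORBI_3005G017801 is annotated as a glutathione transferase, an enzyme that joins glutathione to toxic compounds, and had 2.43, 2.90 and 1.24 FPKM in M-81E-salt and 3.45, 3.92 and 1.70 FPKM in M-81E-CK. The third replicate was the lowest in both treatments. SORBI_3007G100032 carries the enzyme number of 4-coumarate-CoA ligase, which feeds lignin and flavonoid synthesis, and had 1.78 to 2.38 FPKM in M-81E-salt and 1.79 to 1.98 FPKM in M-81E-CK. The descriptions of this locus and of the helicase SORBI_3010G165700 carry the numbers of genes on other chromosomes.

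Protein turnover was represented by SORBI_3010G102366 and SORBI_3006G038300. SORBI_3010G102366 has the term SUMO-specific protease activity, for an enzyme that removes the small protein SUMO from others, with 1.30 to 1.69 FPKM in M-81E-salt and 1.15 to 1.42 FPKM in M-81E-CK, and its description is likewise that of a gene on another chromosome. SORBI_3006G038300 has terms for protein ubiquitination and for cellular responses to salt stress and water deprivation, with 1.36, 1.17 and 1.10 FPKM in M-81E-salt and 1.69, 1.18 and 1.30 FPKM in M-81E-CK. It was the single member with a salt stress term, and its salt and CK libraries overlapped. The remaining annotated loci were SORBI_3001G342400, placed in the endoplasmic reticulum, at 3.95 to 7.80 FPKM in M-81E-salt and 4.46 to 10.8 FPKM in M-81E-CK, and SORBI_3003G149900, with terms for organelles, rRNA binding and embryo development, at 1.40 to 1.82 FPKM in M-81E-salt and 1.22 to 1.72 FPKM in M-81E-CK.

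Of 17 lists of functions, 16 were searched in names and descriptions alone, and 14 of these held none of the 40 loci. Those lists were themselves small, with 1 to 44 loci of the table, because most descriptions say only hypothetical protein. The empty lists for kinases, transcription factors and glutathione transferases thus do not count the loci given those functions by GO terms above. The list of uncharacterised loci held 13 of the 40, beside 463 of the 11267 loci at the M-81E limit. These 13 were the loci without a description. The search missed descriptions of a hypothetical protein followed by a sorghum gene identifier, so both counts leave out many uncharacterised loci. The list for salt, water and abscisic acid, which was also searched in GO terms, held 2 of the 40, beside 476 of the 11267. These 2 were SORBI_3003G442100 and SORBI_3006G038300.

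Among the loci without an annotated function, SORBI_3009G202200 was the highest, with 6.71, 6.31 and 10.8 FPKM in M-81E-salt and 7.44, 5.14 and 6.59 FPKM in M-81E-CK, with 0 listed for Roma. SORBI_3002G208800 varied little, with 4.54, 4.39 and 4.95 FPKM in M-81E-salt and 4.48, 5.08 and 4.57 FPKM in M-81E-CK. Neither has an annotated transcript, so no protein can be named for them.

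Some loci were related to each other by description. SORBI_3006G036566 and SORBI_3010G145500 are both described as the same hypothetical protein, although they lie on chromosomes 6 and 10, and both were among the 40. SORBI_3006G036566 had 3.67, 3.46 and 3.57 FPKM in M-81E-salt and 3.49, 3.72 and 4.79 FPKM in M-81E-CK, with at most 0.0376 FPKM in Roma. SORBI_3010G145500 had 2.91, 3.02 and 3.71 FPKM in M-81E-salt and 3.34, 2.99 and 3.33 FPKM in M-81E-CK, with at most 0.00888 FPKM in Roma. Loci with the same description may share reads, which was not tested, so their levels are uncertain and they may not be independent.

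A further pair, SORBI_3005G133233 and SORBI_3002G162450, likewise carries one description on chromosomes 5 and 2. SORBI_3005G133233 had 2.29, 2.5 and 3.18 FPKM in M-81E-salt and 1.96, 1.51 and 1.44 FPKM in M-81E-CK. SORBI_3002G162450 had 2.31, 2.30 and 2.26 FPKM in M-81E-salt and 2.01, 1.88 and 1.87 FPKM in M-81E-CK. In both loci of the pair the salt libraries lay above the CK libraries. SORBI_3004G053800, at 5.78, 6.5 and 8.04 FPKM in M-81E-salt and 6.80, 6.89 and 6.80 FPKM in M-81E-CK, is described as SORBI_3001G363900 is. A locus named SORBI_3001G363900 had 0.790 to 0.997 FPKM in M-81E and was listed at 0 in Roma, just short of the M-81E limit. A further locus of that name was listed at 0 in M-81E-salt and had 0.675, 0.857 and 1.56 FPKM in M-81E-CK, with at most 0.0580 FPKM in Roma.

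The 40 loci lay on all 10 chromosomes, with 4, 4, 5, 4, 4, 8, 3, 1, 4 and 3 on chromosomes 1 to 10. They made up 0.797% of the expressed loci of chromosome 6, 0.771% of those of chromosome 5 and 0.179% of those of chromosome 8. No members were within 3 annotated genes of each other. The nearest were SORBI_3006G158200 and SORBI_3006G158600, with 4 genes between them. Of these genes, SORBI_3006G158266, SORBI_3006G158332 and SORBI_3006G158400 belong to a single locus with terms for kinase and for salutaridine reductase activity. That locus was read in both lines, at 4.46 to 23.1 FPKM in M-81E and 1.42 to 22.0 FPKM in Roma. Its level cannot be assigned to any one of these genes.

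Of the 80 genes that flank the 40 loci in the order of their identifiers, 20 (25.0%) had 1 FPKM or more in all libraries of both lines and 59 were under that level in at least 1 library. Among the neighbours of all expressed loci, 40.5% were at that level in both lines. At least 1 neighbour read in both lines was found for 16 of the 40 loci. The remaining neighbour (1.25%) showed the opposite pattern, beside 0.062% of the neighbours of all expressed loci. SORBI_3006G036500, a hypothetical protein next to SORBI_3006G036566, had 0.00468, 0.00441 and 0.00791 FPKM in M-81E-salt and 0.00230, 0.00971 and 0.0134 FPKM in M-81E-CK, against 1.89, 2.35 and 2.39 FPKM in Roma-salt and 2.28, 1.82 and 1.99 FPKM in Roma-CK. At this place on chromosome 6, adjacent genes were thus read each in 1 line. Among the 59 neighbours under that level, SORBI_3010G102300, next to SORBI_3010G102366, came near this pattern, with means of 0 FPKM in M-81E and 1.75 FPKM in Roma.

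The salt response within M-81E was then examined, as the rule did not compare treatments. A locus counted as a differentially expressed gene (DEG) when its mean FPKM differed at least 2-fold between salt and CK, a log2 ratio of 1 either way, and its limma p before adjustment was under 0.05. All 40 loci were tested, and 0 were DEGs, where 6.57% of the 32212 loci tested and 3.65% of the expressed loci were DEGs. With a Benjamini-Hochberg adjusted limma p under 0.05, 0 of the 40 passed, beside 0.826% of the loci tested, and the lowest adjusted p was 0.155. An unadjusted p under 0.05 was found for 5 loci (12.5%), beside 15.3% of the loci tested and 23.5% of the expressed loci. Of these, 4 (10%) had the higher mean in salt, beside 8.21% of the loci tested and 13.3% of the expressed loci, and 1 (2.5%) the lower mean, beside 7.11% and 10.1%. In the linear model of Ballgown, 0 of the 40 passed the adjustment, beside 0.059% of the loci tested, and 5 had an unadjusted p under 0.05, beside 13.3%. The 3 salt and the 3 CK libraries did not overlap in 6 loci (15%), beside 22.1% of the loci tested and 33.0% of the expressed loci.

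The median log2 ratio of the 40 loci was 0.098 (−0.49 to 1.08), beside 0.057 over all expressed loci, and 24 of the 40 (60%) had the higher mean in salt, beside 55.95% of the expressed loci. The standard error of limma's log2 fold change had a median of 0.146. For 36 loci the 95% interval of that fold change lay within 1 on the log2(FPKM + 1) scale in both directions. On that scale a doubling of FPKM is a step of less than 1, and a smaller one at low levels. The intervals therefore do not show that a 2-fold change in FPKM was absent in these loci. The floor of 1 FPKM in all M-81E libraries keeps out loci that salt turns on or off, so these counts do not cover such loci.

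**Figure D5:**
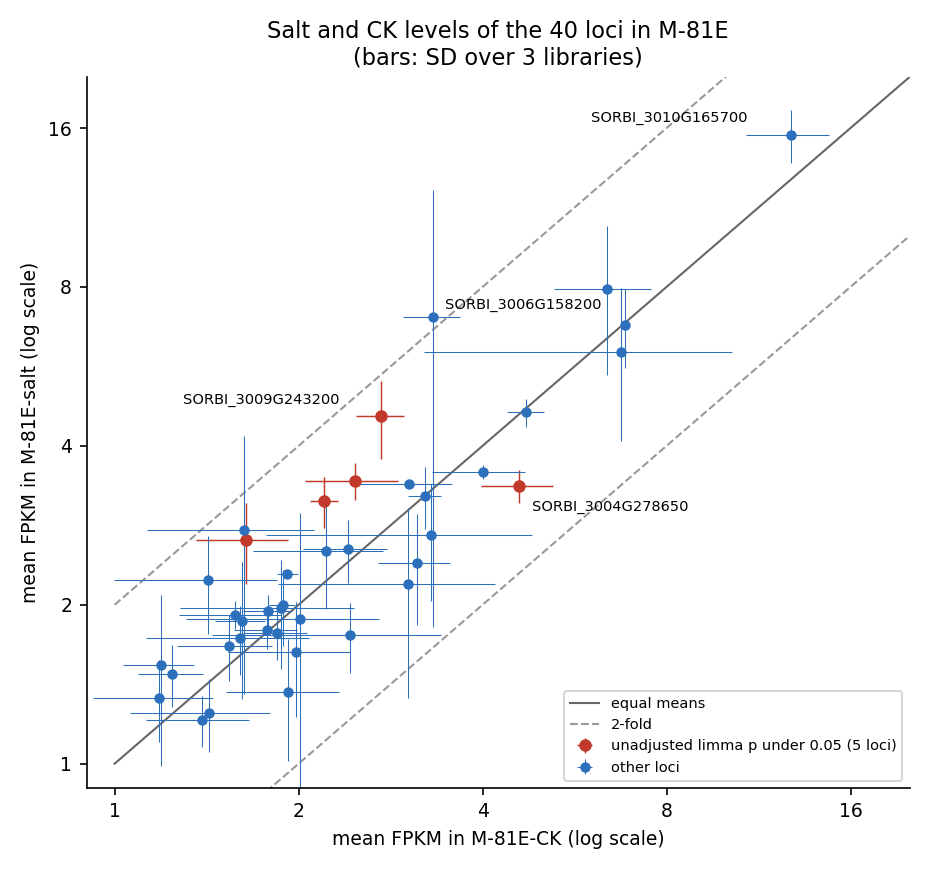
Mean FPKM in M-81E-salt against mean FPKM in M-81E-CK for the 40 loci (log axes, bars are the SD over 3 libraries, dashed lines mark a 2-fold difference). Red marks the 5 loci with an unadjusted limma p under 0.05. SORBI_3006G158200 alone lies past the 2-fold line, with a wide bar in salt.

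The 5 loci with the lowest p were singled out after their values were seen, and none passed the adjustment. SORBI_3009G243200, a StringTie locus without a description, had 4.93, 5.05 and 3.67 FPKM in M-81E-salt and 2.80, 2.93 and 2.46 FPKM in M-81E-CK. Every salt library was above every CK library. Its mean was 4.55 ± 0.765 FPKM in salt and 2.73 ± 0.244 FPKM in CK (SD, n = 3), a log2 ratio of 0.74, with a limma p of 0.00749 (adjusted p = 0.155) and a two-sided exact permutation p of 0.1, the smallest that 3 against 3 libraries allow. The annotated locus of the same name was listed at 0 in some libraries of both treatments, and its part in this value was not tested.

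The transcription factor SORBI_3003G442100 had a mean of 3.15 ± 0.350 FPKM in M-81E-salt and 2.20 ± 0.114 FPKM in M-81E-CK (SD, n = 3), a log2 ratio of 0.52 with an adjusted limma p of 0.213 over all loci. Its salt libraries were all above its CK libraries. SORBI_3005G133233, of the pair described above, had 2.66 ± 0.466 FPKM in salt and 1.64 ± 0.280 FPKM in CK, a log2 ratio of 0.70 with an adjusted limma p of 0.229. Its partner SORBI_3002G162450, whose groups also did not overlap, had 2.29 ± 0.0259 FPKM in salt and 1.92 ± 0.0763 FPKM in CK, with an unadjusted limma p of 0.128. SORBI_3005G102350, without a description, had 3.74, 3.33 and 3.21 FPKM in M-81E-salt and 2.93, 2.08 and 2.41 FPKM in M-81E-CK, with an adjusted limma p of 0.287. The one locus of the 5 with the lower mean in salt was SORBI_3004G278650, at 3.36 ± 0.245 FPKM in salt and 4.59 ± 0.619 FPKM in CK, with an adjusted limma p of 0.257.

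The largest difference in means was not the most certain one. SORBI_3006G158200, the kinase above, averaged 7.02 ± 5.21 FPKM in M-81E-salt and 3.32 ± 0.353 FPKM in M-81E-CK, a log2 ratio of 1.08 with an adjusted limma p of 0.725. Its second salt library was the lowest of the 6 M-81E libraries and the other salt libraries were the highest, a 9.94-fold range. Without that library its log2 ratio was 1.59 and it met the DEG rule in the limma fit (adjusted p = 0.0683 over all loci). SORBI_3006G158600 met the DEG rule in the limma fit without the third salt library, its lowest in salt, with adjusted p = 0.184. Across the 40 loci the highest M-81E library exceeded the lowest by a median of 1.79-fold. Their spread between replicates, a median SD of 0.163 on the log2(FPKM + 1) scale, was near the 0.176 of the 8303 loci in the same range of level.

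Loci at 0.05 FPKM or less in all Roma libraries that reached 1 FPKM in all libraries of just 1 M-81E treatment were outside the rule. There were 14 such loci for salt and 11 for CK, and 6 of these 25 were DEGs in M-81E, beside 6.57% of all loci tested. Their choice by treatment favours such calls. The 3 with an adjusted limma p under 0.05 are named here, and so were picked by their result. SORBI_3005G046400 was listed at 0 in all M-81E-salt libraries and had 1.78, 1.35 and 1.62 FPKM in M-81E-CK. SORBI_3005G186200, with StringTie transcripts alone, was listed at 0 in M-81E-salt as well, with 1.61, 2.51 and 2.70 FPKM in M-81E-CK. SORBI_3009G088200, also with StringTie transcripts alone, had 1.80, 1.30 and 1.96 FPKM in M-81E-salt, with 0 listed for M-81E-CK.

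The sum of FPKM was 267572 to 280729 in the M-81E libraries and 282710 to 305677 in the Roma libraries, without overlap. Correlations of log2(FPKM + 1) were 0.933 to 0.948 within an M-81E group, 0.935 to 0.949 within a Roma group and 0.927 to 0.935 between the M-81E groups, and 0 pairs of libraries were identical. Roma-salt replicate 2 had the highest summed level of the 40 loci in Roma, and without it 47 loci met the rule. Of 10 loci with a Casparian strip term, which mark the root endodermis, 6 had 1 FPKM or more in all 12 libraries. Of 18 loci with a term for light harvesting in photosystems, which mark green tissue, 1 did. Their sums were 71.0 to 98.9 FPKM and 12.1 to 24.4 FPKM in M-81E-salt and 74.2 to 86.5 FPKM and 10.2 to 32.9 FPKM in M-81E-CK, against 61.7 to 84.8 FPKM and 13.6 to 17.2 FPKM in Roma-salt and 75.2 to 88.5 FPKM and 22.7 to 27.2 FPKM in Roma-CK. The 20 loci with a term for the start of DNA replication, which mark dividing cells, summed to 37.4 to 42.9 FPKM in M-81E-salt and 46.4 to 61.6 FPKM in M-81E-CK, against 60.2 to 80.3 FPKM in Roma-salt and 75.0 to 91.1 FPKM in Roma-CK. These sums were lower in M-81E than in Roma within each treatment, and in M-81E they were lower in salt than in CK without overlap. The 85 loci with a term for root hairs, of which 39 had 1 FPKM or more in all libraries, summed to 1609 to 1872 FPKM in M-81E-salt and 1470 to 1648 FPKM in M-81E-CK, against 2005 to 2109 FPKM in Roma-salt and 1909 to 1967 FPKM in Roma-CK, lower in M-81E without overlap. The 99 loci with a photosystem term, of which 10 had 1 FPKM or more in all libraries, summed to 153.5 to 160.8 FPKM in M-81E-salt and 147.9 to 150.2 FPKM in M-81E-CK, against 133.7 to 149.4 FPKM in Roma-salt and 132.9 to 146.9 FPKM in Roma-CK. The photosystem sums were higher in salt within M-81E, and higher in M-81E than in Roma within each treatment, without overlap. In Roma, the light harvesting sums were lower in salt than in CK and the root hair sums were higher, each without overlap. The part of these differences in the results above was not tested. None of the 40 loci was among these markers.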

How the data were processed

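Root RNA of 12 libraries was sequenced, and the authors deposited 1 table of FPKM per locus, made with cutadapt, Bowtie2, TopHat2 and StringTie (versions and genome build not given in the sources used here). The methods describe libraries depleted of ribosomal RNA and small RNA libraries, and the labels name the kit of the small RNA libraries alone. Read counts, and thus depth and counting intervals, are unknown, which limits precision at low FPKM. The table's 12 columns were matched to samples by name (0 unmatched). limma 3.58.1 (R 4.3.3, eBayes with a trend) was fitted to log2(FPKM + 1) over the 6 M-81E libraries and 32212 loci above 0 in at least 1 of them, with Benjamini-Hochberg adjustment, and was tested on simulated data. DEG thresholds followed the methods, which used Ballgown. With limma they called 2117 of the 32212 loci in M-81E, more than the study reported, so the DEG shares above are not the study's own. Other steps used Python 3.11.15 with pandas 2.3.3 and scipy 1.17.1. Named were the 10 highest loci, salt DEGs, leading loci of each function list, loci at the limits and adjacent loci, and further ones after their values were seen. The loci, lists and tests were chosen with earlier results of these data known. Markers by GO term were added after descriptions matched few loci. No sequences of the loci were used here.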

Additional observations from a re-analysis of the deposited data

How the results depend on the processing

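The number of loci followed the limits of the rule: 68 with an M-81E limit of 0.5 FPKM, 14 with 2 FPKM, 13 with a Roma limit of 0 FPKM, 46 with 0.1 FPKM, 69 when 5 of 6 libraries of each line sufficed, 39 with a single SORBI name, 29 with an annotated transcript (an alternative added after seeing the data) and 40 to 47 without each replicate in turn. The count of DEGs among the 40 remained 0 under a pseudocount of 0.1, a mean of at least 1 FPKM, a common median, a single prior variance, the Ballgown model, all 12 libraries, limma's fold change as threshold and the replicate block, and was 0 to 1 without each replicate in turn. The count with an adjusted limma p under 0.05 was 1 in the fit of all 12 libraries (SORBI_3009G243200, adjusted p = 0.0364), where 2.7% of all loci passed, and 0 otherwise. The count with an unadjusted p under 0.05 was 9 with all 12 libraries (22.5%, beside 16% of all loci and 24.4% of the expressed loci), 5 with the replicate block and 2 to 6 without each replicate in turn. It was 3 without CK replicate 2, 2 without CK replicate 3 and 3 without salt replicate 1. The rule held the Roma values of these loci at or near 0, which lowers the spread in the fit of 12 libraries, so its counts give no support. For the counts without a replicate, the cause was not tested. Without a replicate, a pair of libraries is compared with 3. The median log2 ratio was 0.023 to 0.16 without each replicate in turn and 0.057 after rescaling to a common median. Deviations of same-numbered libraries correlated by −0.0191, −0.00622 and 0.0303, and those of other pairs by −0.025 to 0.0345, so no sign of pairing was seen. Whether same-numbered libraries were handled together is not given in the labels. Low levels limit all of these values, since a read count behind an FPKM is not known.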
